A study of Mus musculus with 10 samples.

Results

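The 43 genes described here encode the enzymes and transporters of central carbon metabolism: glucose uptake (2 genes), upper glycolysis (8), lower glycolysis (7), lactate formation and transport (4), the pentose phosphate pathway (7), pyruvate dehydrogenase (3) and the tricarboxylic acid (TCA) cycle (12). They were taken by name, for their place in these pathways, from the 23005 RefSeq genes with a symbol, and all 43 were matched. Of them 39 reached 1 FPKM (fragments scaled to transcript length and to library size) in at least 1 of the 2 lineages, among 9622 such genes in all.

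The study compared splicing between the 2 lineages of mature T cells that leave the thymus, CD8 single-positive (CD8SP, cytotoxic) and CD4 single-positive (CD4SP, helper) thymocytes. Both came from C57BL/6 mice aged 6 to 8 weeks, with 2 or 3 thymi pooled for each sample. CD8SP cells were sorted as CD8+ CD4- TCRβ+ CD24- after beads had removed cells with CD4, and CD4SP cells as CD4+ CD8- TCRβ+ CD24- after beads had removed cells with CD8. Each removal also took away double-positive thymocytes. Each lineage has 1 long-read library and 4 short-read samples whose labels differ only by sequencing lane, and the short-read values come as 1 pooled file per lineage. There is thus 1 short-read value per gene and lineage and no replicate, so no p-value is given, and the depth behind each value is unknown. The only error given is an interval deposited with each transcript's FPKM, which covers its estimation and not the spread between mice.

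Glycolysis splits glucose to pyruvate in the cytosol and yields ATP and NADH. Pyruvate is either reduced to lactate, which leaves the cell, or enters mitochondria, where pyruvate dehydrogenase turns it to acetyl-CoA for the TCA cycle. The pentose phosphate pathway branches off at glucose 6-phosphate and supplies NADPH and the ribose of nucleotides. Resting T cells rely mainly on mitochondrial oxidation, and activated, dividing T cells raise glycolysis and lactate output.

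The cells followed their labels. Cd8a stood at 241 FPKM in CD8SP and 10.9 FPKM in CD4SP cells, and Cd4 at 1.69 FPKM in CD8SP and 107 FPKM in CD4SP cells. The T cell genes Cd3e, Cd3d, Cd3g and Lck lay between 114 and 307 FPKM in CD8SP and between 73.6 and 199 FPKM in CD4SP cells. Markers of other cell types were mostly low. The 4 erythroid genes, from cells that live on glycolysis, summed to 4.0 FPKM in CD8SP and 4.85 FPKM in CD4SP cells, and 5 myeloid and dendritic genes to 5.26 FPKM in CD8SP and 9.29 FPKM in CD4SP cells. Of the B cell genes described here, Ms4a1 was under 0.1 FPKM in both, Cd79a was listed at 0 in both (exon-based value 0.248 in CD8SP, 7.05 in CD4SP) and Cd79b had 5.49 FPKM in CD8SP and 0.583 FPKM in CD4SP cells. The 3 stromal genes summed to 15.9 FPKM in CD8SP and 23.6 FPKM in CD4SP cells, nearly all from Pecam1. Of 4 double-positive thymocyte genes at 1 FPKM or more, Rag1 (4.12 in CD8SP, 12.5 FPKM in CD4SP) and Arpp21 (2.07 in CD8SP, 5.54 FPKM in CD4SP) were lower in CD8SP, and 0 of 4 were higher. Of the proliferation genes, 15 of 18 were higher in CD8SP by the rule given next, with a median log2 ratio of 1.29, and 11 of 18 after the shift of the all-gene median described there. In bulk RNA a different number of dividing cells and a different amount of RNA per cell cannot be told apart, and the part of proliferation in the results below was not tested.

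By gene FPKM, most members at 1 FPKM or more differed by less than 1.5-fold between the lineages. With a value of 1 FPKM or more in either lineage, a gene counted as called if CD8SP and CD4SP cells differed at least 2-fold (a log2 ratio of 1 in size on the scale of log2(FPKM + 0.1)) and the summed deposited intervals lay apart. By that rule 1 member, the lactate transporter gene Slc16a1, was higher in CD8SP cells, and 2, the lactate dehydrogenase gene Ldhb and the enolase gene Eno3, were lower. These 3 are 7.69% of the 39 members at 1 FPKM or more, while 14.8% of all 9622 genes were called, 10% higher and 4.75% lower in CD8SP. The median log2 ratio of the members was 0.22, the same as over all genes. The quartiles of the members were 0.10 and 0.46, against -0.16 and 0.59 for all genes. Within 1.5-fold lay 31 of the 39 members (79.5%), against 64.6% of all genes.

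The all-gene median is itself above 0, at 0.21 for the 8703 genes at 1 FPKM or more in both lineages, so a small excess in CD8SP is the background level. Setting that median to 0 left 0 members higher and 2 lower, with 13.7% of all genes called, 7.04% higher and 6.69% lower. Before that shift 31 of the 39 members (79.5%) had a log2 ratio above 0, against 65.6% of all genes, and 21 lay above the all-gene median, against 50.3% of all genes. Intervals were apart for 24 of the 39 members, 21 higher and 3 lower in CD8SP, against 54.7% of all genes tested, made up in the main of genes higher in CD8SP (39.2% of all genes tested).

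**Figure D1:**
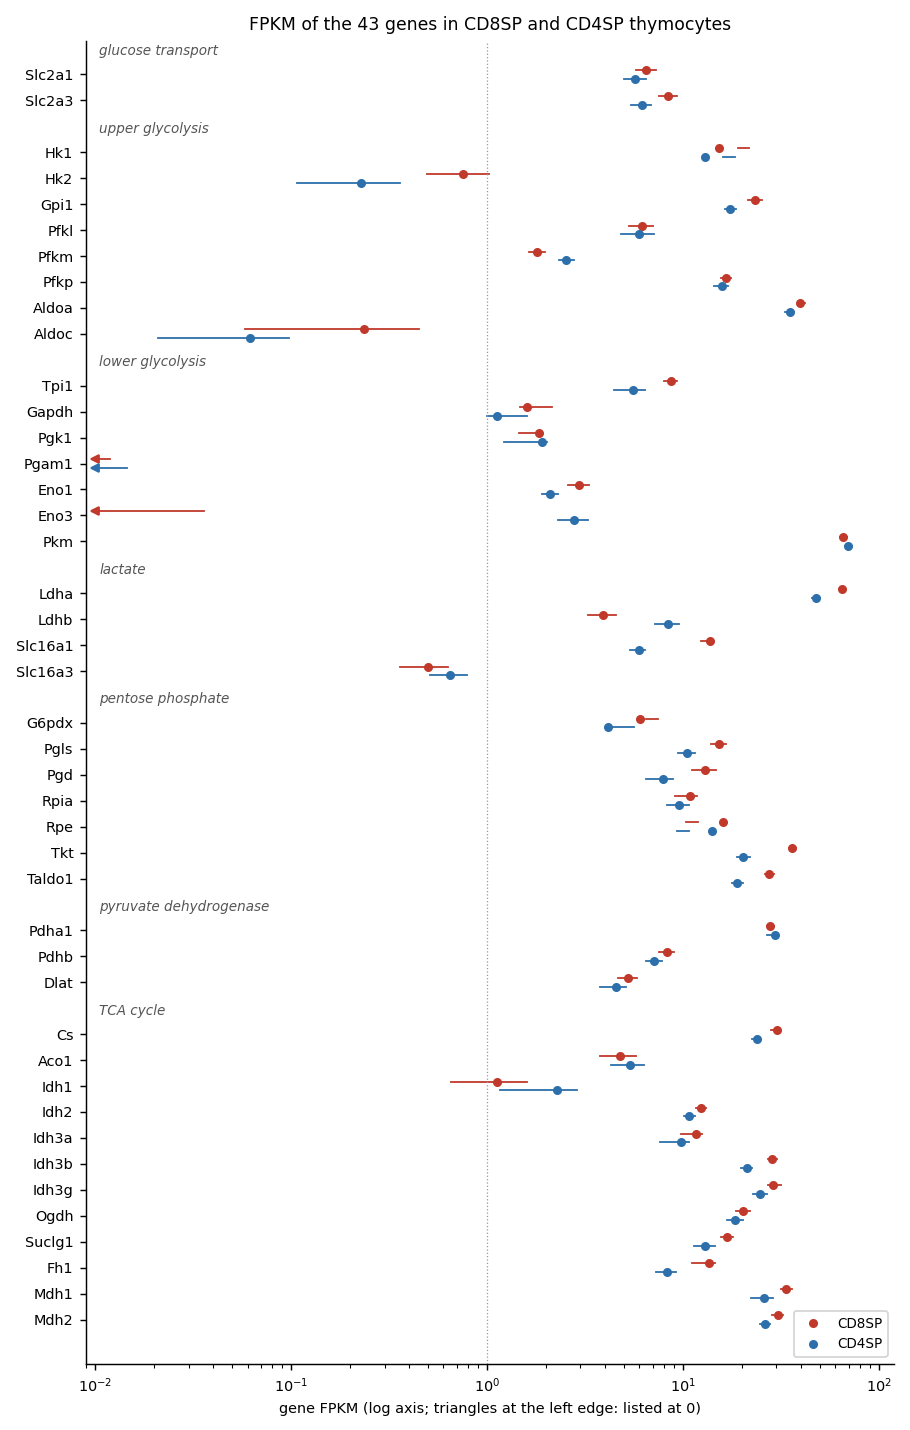
Gene FPKM (log axis) of the 43 genes by pathway step in CD8SP (red, upper point of each gene) and CD4SP (blue, lower point) thymocytes; lines are the summed deposited intervals, triangles mark values listed at 0, and the dotted line is 1 FPKM. Most pairs of points lie close together; Slc16a1, Ldhb and Eno3 are the pairs that passed the call rule.

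**Figure D2:**
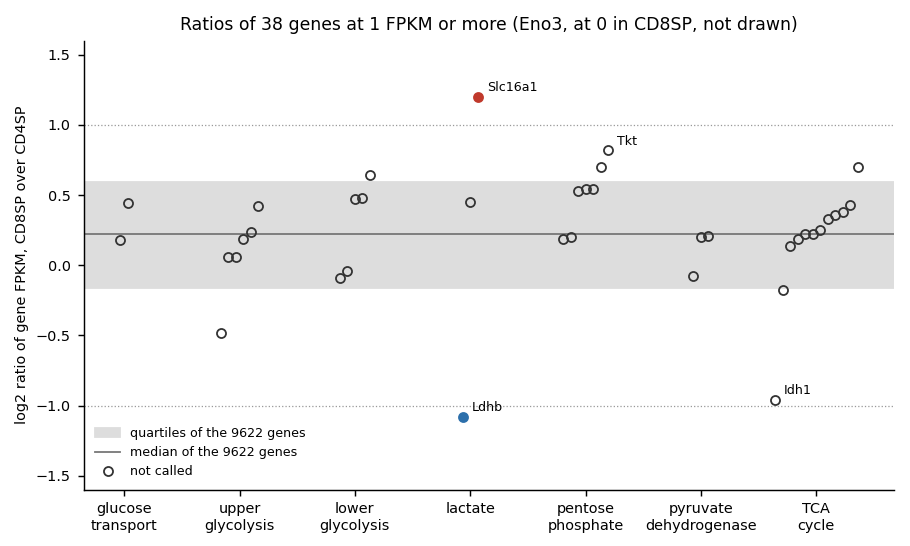
Log2 ratio of gene FPKM, CD8SP over CD4SP, for 38 members at 1 FPKM or more, by pathway step (Eno3, listed at 0 in CD8SP and called lower, is not drawn); filled points were called, the grey band spans the quartiles of all 9622 genes and the line is their median of 0.22. All 7 pentose phosphate genes lie above 0, and Slc16a1 at 1.20 and Ldhb at -1.08 lie on opposite sides.

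The glucose transporters differed by less than 1.5-fold. Slc2a1, the transporter GLUT1, stood at 6.49 FPKM (interval 5.78 to 7.30) in CD8SP and 5.72 FPKM (5.03 to 6.50) in CD4SP cells. Slc2a3, the high-affinity transporter GLUT3, stood at 8.41 FPKM (7.53 to 9.29) in CD8SP and 6.16 FPKM (5.42 to 6.87) in CD4SP cells. GLUT3 supplied 56.4% of the summed FPKM of both transporters in CD8SP and 51.9% in CD4SP cells, with overlapping bounds.

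Hexokinase, which traps glucose as glucose 6-phosphate, was almost all Hk1. Hk1 had 15.3 FPKM in CD8SP and 12.9 FPKM in CD4SP cells, and both values lie below their own summed intervals of 19.1 to 21.7 and 16.1 to 18.4. Hk2, the inducible isozyme of activated T cells, had 0.751 FPKM (0.494 to 1.03) in CD8SP and 0.228 FPKM (0.107 to 0.360) in CD4SP cells. It stayed under the floor of 1 FPKM, so its 3.29-fold ratio was not called, and its share of the hexokinase FPKM was 4.69% in CD8SP and 1.74% in CD4SP cells. Without the floor it would be called higher in CD8SP.

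The later steps of upper glycolysis held 0 calls. Gpi1, the isomerase to fructose 6-phosphate, had 23.4 FPKM in CD8SP and 17.4 FPKM in CD4SP cells, with intervals apart. Phosphofructokinase, which commits sugar to glycolysis, was mostly the platelet isozyme Pfkp, at 16.5 FPKM in CD8SP and 15.9 FPKM in CD4SP cells. The liver isozyme Pfkl had 6.19 FPKM in CD8SP and 5.94 FPKM in CD4SP cells. The muscle isozyme Pfkm was the lowest, and the lower one in CD8SP, at 1.80 FPKM (1.63 to 1.98) in CD8SP and 2.54 FPKM (2.32 to 2.78) in CD4SP cells. Their shares were close: Pfkp made up 67.4% in CD8SP and 65.2% in CD4SP cells, and Pfkm 7.34% in CD8SP and 10.4% in CD4SP cells. Aldolase, which splits the hexose, was Aldoa, at 39.8 FPKM in CD8SP and 35.0 FPKM in CD4SP cells, with Aldoc at 0.235 FPKM in CD8SP and 0.0616 FPKM in CD4SP cells. Over all 8 genes upper glycolysis summed to 104 FPKM in CD8SP and 90.0 FPKM in CD4SP cells.

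Lower glycolysis, from triose phosphate to pyruvate, held low values for genes that every cell uses. Gapdh, the dehydrogenase of glyceraldehyde 3-phosphate, had 1.61 FPKM in CD8SP and 1.13 FPKM in CD4SP cells. Pgk1, which makes ATP, had 1.85 FPKM in CD8SP and 1.90 FPKM in CD4SP cells, and Pgam1, the mutase of phosphoglycerate, was listed at 0 in both. These genes have many near-identical processed copies in the mouse genome, so their values, and those of Tpi1 and Eno1, are uncertain, and a listed 0 can be a failed estimate. Tpi1, the triose phosphate isomerase, had 8.68 FPKM (8.05 to 9.34) in CD8SP and 5.53 FPKM (4.44 to 6.44) in CD4SP cells, a 1.57-fold ratio that was not called. Over RefSeq transcripts alone, without assembled ones, it had 8.51 FPKM in CD8SP and 3.61 FPKM in CD4SP cells (log2 ratio 1.22) and was called. That sum called 4 members higher (Tpi1, Slc16a1, G6pdx and Tkt) and 1 lower (Eno3), beside 20.5% of all genes, 15.1% higher and 5.43% lower. An exon-based value was set beside each gene FPKM: transcripts of 200 bases or more, whatever their origin, added their FPKM in proportion to how much of the gene's RefSeq exons they span. By it Pgam1 had 1.13 in CD8SP and 0.502 in CD4SP cells and was called higher in CD8SP, and 10.8% of all genes were called, 7.46% higher and 3.39% lower. It called 4 members higher (Pgam1, Eno3, Slc16a1 and Tkt) and 1 lower (Ldhb). By this value, unlike the gene FPKM, members were called no less often than all genes. The calls are few, however, and Pgam1 lies near the floor of 1 FPKM. With the median of this value set to 0, an alternative chosen after seeing the data, only Ldhb was called. Of all genes 9.61% were called there.

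Enolase, which makes phosphoenolpyruvate, could not be read as a difference. Eno3, the muscle isozyme, was listed at 0 FPKM in CD8SP and 2.78 FPKM (2.30 to 3.28) in CD4SP cells, the reason for its call. CD8SP cells, however, held 2 assembled transcripts, at 4.56 and 1.69 FPKM, that share introns with both Eno3 and its neighbour Rnf167 and were counted for neither. With these added, and in the exon-based value (6.21 in CD8SP, 2.67 in CD4SP), Eno3 was called higher in CD8SP. Eno1, the general isozyme, had 2.95 FPKM in CD8SP and 2.1 FPKM in CD4SP cells. A further RefSeq transcript placed at the Eno1 locus, that of the copy Eno1b, was listed at 9.80 FPKM in CD8SP and 10.2 FPKM in CD4SP cells, and the exon-based value of Eno1 was 11.6 in both.

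Pyruvate kinase, the last step of glycolysis, was among the highest members, with intervals that overlap those of Ldha in CD8SP. Pkm had 65.6 FPKM (63.1 to 68.7) in CD8SP and 69.6 FPKM (67.4 to 72.9) in CD4SP cells, at percentile 96.9 of the genes tested in CD8SP and 98.1 in CD4SP. Its transcripts carry either of 2 exclusive exons. The M2 exon gives the isoform PKM2 of dividing cells, which allosteric ligands regulate, and the M1 exon gives the constitutively active PKM1 of muscle and brain. Both exons are coding, lie on the plus strand of chromosome 9 and are exon 9 of 11 in their transcripts, and they are shown because the choice between them sets the isoform. They have 167 bases each and differ at 64 of them (61.7% identity), and capitals mark the bases that differ. The M1 exon (chr9:59675029-59675195, GRCm38) is that of RefSeq NM_001253883 and GENCODE Pkm-202, and the M2 exon (chr9:59675568-59675734) that of NM_011099 and Pkm-201.
M1 exon: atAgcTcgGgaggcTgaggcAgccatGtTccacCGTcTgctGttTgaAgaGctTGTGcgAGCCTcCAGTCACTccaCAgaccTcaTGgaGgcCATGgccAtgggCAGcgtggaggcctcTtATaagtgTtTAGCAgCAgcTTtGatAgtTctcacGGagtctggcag
M2 exon: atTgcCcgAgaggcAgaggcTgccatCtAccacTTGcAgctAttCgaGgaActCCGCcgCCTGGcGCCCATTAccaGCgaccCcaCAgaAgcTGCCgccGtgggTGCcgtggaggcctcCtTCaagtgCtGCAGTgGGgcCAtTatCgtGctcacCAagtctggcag

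Both lineages used both exons, with M2 ahead. Transcripts with the M2 exon summed to 38.4 FPKM (37.0 to 39.9) in CD8SP and 38.8 FPKM (38.1 to 40.4) in CD4SP cells. Those with the M1 exon summed to 24.3 FPKM (23.5 to 25.6) in CD8SP and 28.3 FPKM (27.1 to 29.6) in CD4SP cells. The M2 share was thus 61.3% (bounds 59.1 to 62.9) in CD8SP and 57.8% (56.3 to 59.9) in CD4SP cells, and the bounds overlap. Weighted over every transcript by its cover of the exons, the share was 61.6% (59.2 to 63.4) in CD8SP and 55.9% (54.0 to 58.3) in CD4SP cells, with bounds apart. In the long-read libraries, the 1 Pkm isoform of CD8SP cells (2262 bases, 11 exons) and the 1 of CD4SP cells (2224 bases, 11 exons) were both full splice matches to Pkm-201, which holds the M2 exon. No long-read isoform with the M1 exon was listed.

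Known regulators of this exon choice were expressed in both lineages. Ptbp1 and Hnrnpa2b1, which repress the M1 exon, had 66.0 and 114 FPKM in CD8SP and 56.6 and 105 FPKM in CD4SP cells. Srsf3, which promotes the M2 exon, had 34.1 FPKM in CD8SP and 52.8 FPKM in CD4SP cells. Its exon-based values were closer, at 34.2 in CD8SP and 37.1 in CD4SP. Of 10 such genes, 9 were at 1 FPKM or more and 1, Hnrnpa1 (6.73 in CD8SP, 1.83 FPKM in CD4SP), was called higher in CD8SP. Hnrnpa1 also has processed copies, and its exon-based value was 14.4 in both. The FPKM of Ptbp1 and Hnrnpa1 in CD8SP, and of Hnrnpa2b1 in both, lie above their own intervals.

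**Figure D3:**
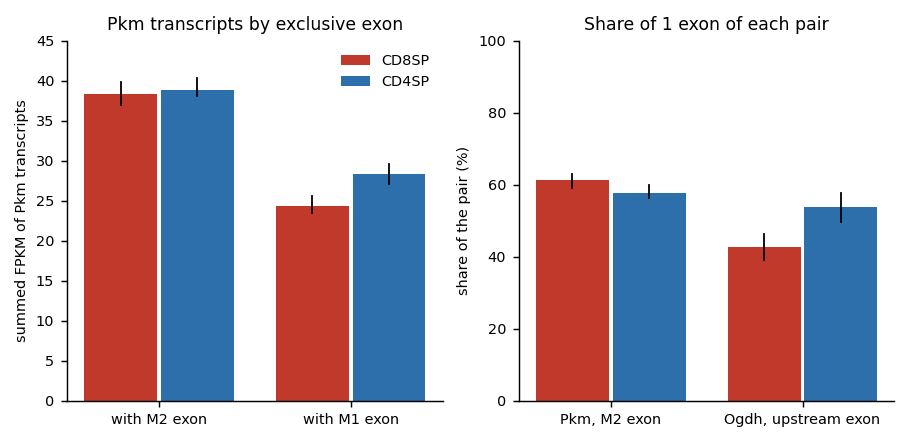
Left, summed FPKM of Pkm transcripts with the M2 or the M1 exon; right, percent share of the M2 exon within the Pkm pair and of the upstream exon within the Ogdh pair, in CD8SP (red, left bars) and CD4SP (blue, right bars); lines are bounds from the deposited intervals. The M2 exon made up 61.3% in CD8SP and 57.8% in CD4SP, and the upstream Ogdh exon 42.7% in CD8SP and 53.7% in CD4SP.

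Of the 4 lactate genes 1 was called higher and 1 lower in CD8SP. Ldha, the subunit that favours lactate formation, had 64.9 FPKM (62.6 to 67.3) in CD8SP and 47.6 FPKM (45.7 to 50) in CD4SP cells, a 1.36-fold ratio with intervals apart. Ldhb (chromosome 6, 142490249 to 142507957, minus strand), the heart-type subunit that favours pyruvate, went the other way, at 3.92 FPKM (3.27 to 4.57) in CD8SP and 8.41 FPKM (7.23 to 9.59) in CD4SP cells. It was 2.15-fold higher in CD4SP and was also called after the shift of the median and in the exon-based value (3.88 in CD8SP, 8.87 in CD4SP). Over RefSeq transcripts alone it stood at 2.85 FPKM in CD8SP and 4.19 FPKM in CD4SP cells and was not called, nor was it with a pseudocount of 1 (log2 ratio -0.94). Ldhb made up 5.69% (bounds 4.63 to 6.80) of the lactate dehydrogenase FPKM in CD8SP and 15% (12.6 to 17.3) in CD4SP cells, with bounds apart, and over RefSeq transcripts alone 4.32% in CD8SP and 8.71% in CD4SP cells.

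Lactate leaves or enters the cell through monocarboxylate transporters. Slc16a1, the transporter MCT1 (chromosome 3, 104638668 to 104658462, plus strand), had 13.8 FPKM (12.4 to 14.3) in CD8SP and 5.94 FPKM (5.35 to 6.38) in CD4SP cells. Its ratio was 2.32-fold. The exon-based values were 12.9 in CD8SP and 5.99 in CD4SP, also called, but after the shift of the median its log2 ratio was 0.99 and it was no longer called. Slc16a3, the exporter MCT4 of highly glycolytic cells, stayed low, at 0.499 FPKM (0.362 to 0.632) in CD8SP and 0.644 FPKM (0.510 to 0.795) in CD4SP cells.

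**Figure D4:**
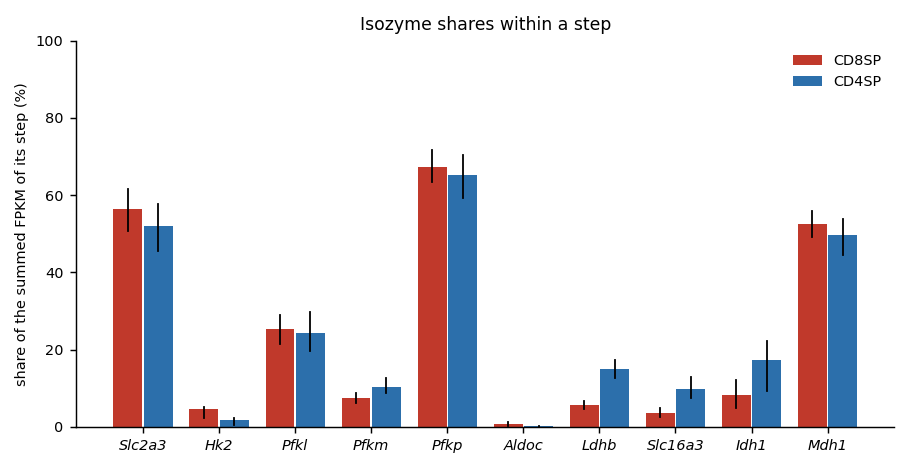
Share of an isozyme or transporter in the summed FPKM of its step (percent) in CD8SP (red, left bars) and CD4SP (blue, right bars); black lines are bounds from the deposited intervals. Most of the shares drawn are near each other, and Ldhb makes up 5.69% in CD8SP and 15% in CD4SP. The enolase step, whose shares differed by 57.0 points in gene FPKM, is not drawn.

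Of the 7 pentose phosphate genes 0 were called. All 7 had a log2 ratio above 0, as did 65.6% of all genes, and 5 of 7 lay above the all-gene median, as did 50.3% of all genes. Their median log2 ratio was 0.54, against 0.22 over all genes. Their summed FPKM was 125 in CD8SP and 85.3 in CD4SP cells. The ratio was highest for Tkt, the transketolase of the non-oxidative arm, at 36.0 FPKM (34.7 to 37.7) in CD8SP and 20.3 FPKM (18.8 to 21.9) in CD4SP cells, or 1.77-fold. Tkt was called higher in CD8SP in the exon-based value, at 31.6 in CD8SP and 14.7 in CD4SP. With the median of that value set to 0, its log2 ratio was 0.90 and the call was lost. Over RefSeq transcripts alone it was also called, at 26.9 FPKM in CD8SP and 5.98 FPKM in CD4SP (log2 ratio 2.15). That sum leaves out assembled transcripts, which held most of the Tkt FPKM in CD4SP.

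Both arms of the pathway held such ratios. In the oxidative arm, Pgd, which makes NADPH and ribulose 5-phosphate, had 12.9 FPKM (11.1 to 14.8) in CD8SP and 7.87 FPKM (6.45 to 8.91) in CD4SP cells. G6pdx, the NADPH-forming entry enzyme, had 6.06 FPKM in CD8SP, below its own interval of 6.50 to 7.47, and 4.13 FPKM (4.08 to 5.63) in CD4SP cells. Over RefSeq transcripts alone G6pdx was called higher in CD8SP, at 5.57 FPKM in CD8SP and 1.83 FPKM in CD4SP (log2 ratio 1.56). Pgls, the lactonase between them, had 15.2 FPKM in CD8SP and 10.5 FPKM in CD4SP cells. In the non-oxidative arm, Taldo1, the transaldolase, had 27.5 FPKM in CD8SP and 18.9 FPKM in CD4SP cells. The isomerase and epimerase genes stood near the background, with Rpia at 10.9 FPKM in CD8SP and 9.53 FPKM in CD4SP cells. Rpe had 16.1 FPKM in CD8SP and 14.1 FPKM in CD4SP cells, both above their own intervals.

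Pyruvate dehydrogenase, the gate to mitochondrial oxidation, was level. Pdha1, its catalytic subunit, had 27.9 FPKM in CD8SP and 29.5 FPKM in CD4SP cells, the CD4SP value just above its own interval. Pdhb had 8.26 FPKM in CD8SP and 7.13 FPKM in CD4SP cells, and Dlat, the acetyl-transfer core, 5.26 FPKM in CD8SP and 4.56 FPKM in CD4SP cells. The 3 genes summed to 41.4 FPKM in CD8SP and 41.2 FPKM in CD4SP cells.

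Of the 12 TCA cycle genes 0 were called, and their median log2 ratio of 0.23 was close to the all-gene value of 0.22. Their sum was 232 FPKM in CD8SP and 190 FPKM in CD4SP cells. Cs, the citrate synthase that opens the cycle, had 30.2 FPKM in CD8SP, just above its own interval, and 23.9 FPKM in CD4SP cells. The 3 subunits of the NAD-dependent isocitrate dehydrogenase were not called: Idh3a had 11.6 FPKM in CD8SP and 9.76 FPKM in CD4SP cells, Idh3b 28.6 in CD8SP and 21.2 in CD4SP, and Idh3g 28.8 in CD8SP and 24.7 in CD4SP. Suclg1, of succinyl-CoA ligase, had 16.8 FPKM in CD8SP and 13.0 FPKM in CD4SP cells. Fh1, the fumarase, had 13.6 FPKM (11.1 to 14.6) in CD8SP and 8.33 FPKM (7.26 to 9.24) in CD4SP cells, a 1.63-fold ratio, and a log2 ratio of 0.41 in the exon-based value.

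Of the enzymes with a cytosolic and a mitochondrial form 0 were called. Mdh1 (cytosolic malate dehydrogenase) made up 52.6% of the malate dehydrogenase FPKM in CD8SP and 49.8% in CD4SP cells, at 33.7 FPKM in CD8SP and 25.9 FPKM in CD4SP, with the mitochondrial Mdh2 at 30.4 FPKM in CD8SP and 26.2 FPKM in CD4SP. Idh1, the cytosolic NADP-dependent isocitrate dehydrogenase, had 1.12 FPKM (0.657 to 1.61) in CD8SP and 2.28 FPKM (1.16 to 2.89) in CD4SP cells, just under the call size and with overlapping intervals. Its mitochondrial counterpart Idh2 had 12.4 FPKM in CD8SP and 10.8 FPKM in CD4SP cells. Idh1 thus made up 8.34% (4.76 to 12.2) of that pair in CD8SP and 17.4% (9.14 to 22.2) in CD4SP cells, with overlapping bounds, and over RefSeq transcripts alone 5.62% in CD8SP and 5.52% in CD4SP cells. Aco1, the cytosolic aconitase that also binds iron-responsive RNA, had 4.76 FPKM in CD8SP and 5.40 FPKM in CD4SP cells.

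Ogdh, the rate-controlling 2-oxoglutarate dehydrogenase, was not called. It had 20.3 FPKM (18.6 to 22.0) in CD8SP and 18.5 FPKM (16.7 to 20.3) in CD4SP cells. Like Pkm, it has a pair of mutually exclusive coding exons, each exon 4 of 23, on the plus strand of chromosome 11 (GRCm38), shown because the bounds of their shares lay apart and singled out after their values were seen. The upstream exon (chr11:6316765-6316855, GENCODE Ogdh-202) has 91 bases and the downstream one (chr11:6316978-6317080, Ogdh-201) 103 bases.
Ogdh upstream exon: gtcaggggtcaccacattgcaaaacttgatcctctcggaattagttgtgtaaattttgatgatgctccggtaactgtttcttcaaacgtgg
Ogdh downstream exon: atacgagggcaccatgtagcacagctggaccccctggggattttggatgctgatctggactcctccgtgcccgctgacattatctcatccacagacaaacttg

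The upstream exon made up 42.7% (bounds 39.2 to 46.3) of the pair in CD8SP and 53.7% (49.6 to 57.7) in CD4SP cells. The difference of -11.0 points has bounds apart but stays under the 20 points that define a call for splicing, for which both lineages must sum to 1 FPKM or more. Both long-read libraries held a 19-exon Ogdh isoform, of 3632 bases in CD8SP and 3635 bases in CD4SP. Each was assigned as a 5′ fragment to Ogdh-202, whose exon 4 of 23 is the upstream exon. Whether these isoforms themselves hold that exon was not tested, so they do not show which exon was used.

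Of 15 member events whose forms are both in RefSeq, in 7 genes, 1 (6.67%) was called, against 18.0% of 3229 such events in all genes. Of these, 8 events belong to Ogdh and 1 is the Pkm exon pair, and of the 6 of other members 1 (16.7%) was called. The called event is an alternative 3′ splice site of Eno3 (100% in CD8SP, 52.7% in CD4SP) that rests on the transcripts shared with Rnf167. A skipped exon of Aldoa was included at 3.37% (2.64 to 4.10) in CD8SP and 8.21% (6.94 to 9.53) in CD4SP cells. Of the pair of RefSeq first exons compared for Ldha, the same one carried 100% of the FPKM in CD8SP and 95.4% in CD4SP cells.

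With assembled forms included, 34 of 270 member events (12.6%), in 12 genes, were called, against 19.3% of 83414 events in all. Most called events had a form listed at 0 in a library, and of the 61 events with both forms above 0 in both 7 (11.5%) were called, against 12.9% of 23634 such events in all. These 7, singled out after their values were seen, lie in Eno1, G6pdx, Ldhb and Slc2a3. An internal exon of Ldhb (chr6:142492493-142492616) was included at 86.7% (81.8 to 91.0) in CD8SP and 55.2% (48.1 to 62.0) in CD4SP cells, the skipping form being an assembled one. An intron of G6pdx (chrX:74410993-74411257) was retained at 1.67% (0.985 to 1.95) in CD8SP and 44.1% (38.3 to 54.0) in CD4SP cells. The events of Slc2a3 (2) and Eno1 (3) were retained introns too.

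Long reads held isoforms of 13 members among 3602 genes in CD8SP and of 10 members among 3031 genes in CD4SP cells. CD8SP cells had 27 member isoforms among 9476, or 0.285% (95% Clopper-Pearson interval 0.188 to 0.414), and CD4SP cells 17 among 8289, or 0.205% (0.120 to 0.328). The intervals overlap and cover counting error only. They take isoforms as independent, though several fall in the same gene, such as 8 of Gpi1 in CD8SP, and so may be too narrow. The read counts behind an isoform are not given, so each isoform counted once. Both libraries held isoforms of 9 members, 4 were seen in CD8SP alone, 1 in CD4SP alone, and 29 in neither. The same overlap was not counted over all genes, and the CD8SP library listed more genes. The split is thus not a result about the members. Members with an isoform had a median of 27.9 FPKM in the CD8SP short reads, against 8.54 FPKM for those without, and 24.9 against 7.13 FPKM in CD4SP.

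Full splice matches were 5 of 27 isoforms in CD8SP (Eno1, Pkm, Tkt, Pdha1 and Mdh1) and 5 of 17 in CD4SP cells (Pkm, Ldha, Pdha1, Mdh1 and Mdh2). The full matches of Pkm, Pdha1 and Mdh1 to the same transcripts were thus in both. Over all isoforms, 8.42% in CD8SP and 7.87% in CD4SP were full matches, and the member counts are small. Tkt was matched over 14 exons in CD8SP (2050 bases), and Mdh2 over 9 exons in CD4SP (1273 bases). Gpi1 had the most isoforms, 8 in CD8SP and 3 in CD4SP, of which 4 in CD8SP and 0 in CD4SP were classed as incomplete matches and 0 in either were full matches. Ldha had 4 in each, with intron-retaining forms in both.

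**Figure D5:**
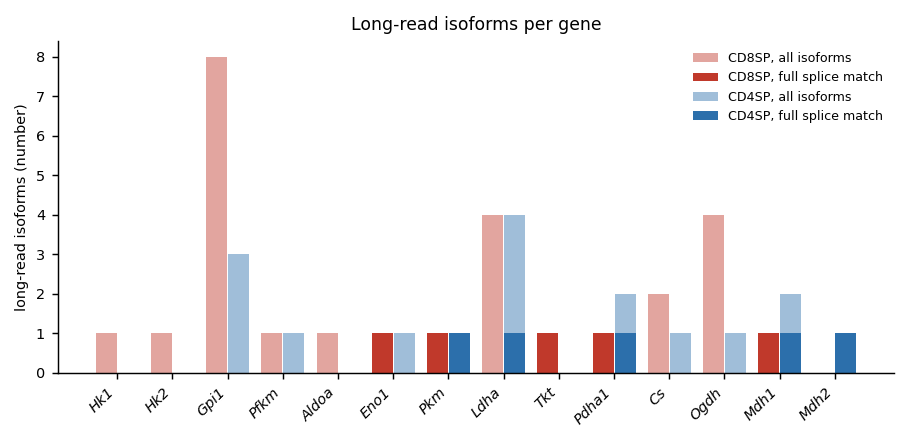
Number of long-read isoforms per member gene in CD8SP (red, left bars) and CD4SP (blue, right bars); the dark part counts full splice matches. Gpi1 has 8 isoforms in CD8SP and 3 in CD4SP, and Pkm, Pdha1 and Mdh1 have a full match in both.

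Other genes of the same pathways were also mostly uncalled. Of 79 listed, 50 were at 1 FPKM or more. Of these, 1 was called higher and 2 lower in CD8SP (6.00%), against 14.8% of all genes. Their median log2 ratio was 0.26, against 0.22 over all genes. Gpd1l, a glycerol 3-phosphate dehydrogenase homologue, had 9.53 FPKM (8.55 to 10.5) in CD8SP and 4.25 FPKM (3.84 to 4.69) in CD4SP cells, a call lost after the shift of the median. The called lower genes encode bifunctional enzymes that set fructose 2,6-bisphosphate, the activator of phosphofructokinase: Pfkfb2 had 2.67 FPKM in CD8SP and 5.46 FPKM in CD4SP cells, and Pfkfb4 0.665 in CD8SP and 1.65 FPKM in CD4SP cells. Neither was called in the exon-based value, with a pseudocount of 1 or over RefSeq transcripts alone, where the log2 ratio of Pfkfb2 turned to 0.41. Among 13 further TCA genes 0 were called. Of these Pck2, which makes phosphoenolpyruvate from oxaloacetate, had 1.12 FPKM (0.561 to 1.66) in CD8SP and 2.04 FPKM (1.51 to 2.56) in CD4SP cells and was called lower after the shift of the median, over RefSeq transcripts alone and in the exon-based value. Among the 9 regulators at 1 FPKM or more 0 were called. Myc, a transcription factor that drives glycolytic genes, lay just under the call size. It had 22.9 FPKM (21.7 to 24.3) in CD8SP and 11.4 FPKM (10.5 to 12.4) in CD4SP cells. It was called higher in CD8SP over RefSeq transcripts alone and in the exon-based value (23.5 in CD8SP, 11.2 in CD4SP). Hif1a, the hypoxia factor that drives many of the same genes, stood at 37.5 FPKM in both, the CD4SP value above its own interval.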

How the data were processed

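Short-read FPKM values and their intervals were deposited by the authors in 1 Cufflinks transcript file per lineage, per the file headers. The long-read tables deposited by the authors list collapsed isoforms with length, exons, category and the percent of A downstream of each isoform's end, per the file headers. The submitters' processing notes name GRCm38, TopHat2 2.0.14, Cufflinks 2.1.1, GSNAP, RSEM 1.3.1, FastQC and Trimmomatic without roles. The 2 columns of a further table were not used here, since it pairs no gene names.

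Gene FPKM was the sum over RefSeq transcripts (30018 of 30604 matched a symbol in the GRCm38.p6 gene table) and assembled multi-exon transcripts sharing an intron with that gene only. Among RefSeq transcripts, 5.19% in CD8SP and 4.89% in CD4SP lie outside their own interval, so intervals are an incomplete error. Bounds of shares set one form at its lower and the other at its upper deposited limit. Positions are GENCODE M21, and exon sequences were cut from its transcripts. Called members, isozymes, members listed at 0, RefSeq events past 20 points and the Pkm exons were named. Members and lists were chosen with earlier results of these data known. The scripts (Python 3.11.15) were tested on simulated data. Alternatives are in the closing section.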

Additional observations from a re-analysis of the deposited data

How the results depend on the processing

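Calls of members depended on how a gene's value was made. Members called higher in CD8SP numbered 1, and 2 without the floor of 1 FPKM (Hk2 added), beside 8.49% of all genes. They numbered 0 with the median log2 ratio set to 0 and 4 over RefSeq transcripts alone. With shared transcripts added they numbered 2 (9.50% of all genes), in the exon-based value 4, and at 1.5-fold 5 (23.2% of all genes). In the exon-based value with its own median set to 0, an alternative chosen after seeing the data, they numbered 0 (5.09% of all genes). Those called lower numbered 2, and 1 over RefSeq transcripts alone and in the exon-based value. With a pseudocount of 1 (2.66% of all genes) and with a floor of 5 FPKM (2.51%) they numbered 1. They also numbered 1 with shared transcripts added (4.89%) and in the shifted form of the exon-based value (4.52%). Eno3 reversed, to a log2 ratio of 1.14 with shared transcripts, 1.19 in the exon-based value and 0.98 after its shift. The other pathway genes called higher numbered 1, and 0 after the shift, 5 over RefSeq transcripts alone and 3 in the exon-based value. Those called lower numbered 2, and 0 with a pseudocount of 1, 1 in the exon-based value, and 3 without the floor, with the median set to 0 and over RefSeq transcripts alone. Pfkfb2 reversed to a log2 ratio of 0.41 over RefSeq transcripts alone.

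The Pkm M2 share in CD4SP was 55.9% when every transcript was weighted by exon cover, against 61.6% in CD8SP. Steps whose isozyme shares differed by at least 20 points numbered 1 (enolase). They numbered 0 in the exon-based value, where Eno1 made up 65.2% in CD8SP and 81.3% in CD4SP. Over RefSeq transcripts 0 of the other steps did so. There the enolase step could not be compared, since Eno1 and Eno3 were both listed at 0 in CD8SP. Member splice events called between RefSeq forms numbered 1, and 0 at a summed FPKM of 5 and 3 at 10 points. Over all forms they numbered 34, and 11 and 70. For these alternatives the share over all events was not counted, so the changes are not results about the members. CD4SP long-read isoforms numbered 17, and 11 without those with at least 60% A after their end. The cause of these changes was not tested. No paired analysis was possible because the replicate numbers are sequencing lanes and the pooled files carry none, so no replicate could be left out either.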
